A study of Mus musculus with 150 samples.

Results

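Zfp42 on mouse chromosome 8 encodes Rex1, a zinc-finger protein long used as a marker of naive pluripotent stem cells. Its replication timing was read at 16 of the 25880 positions, 5 kb apart, of the chromosome 8 table (mm10). They were chosen by place, with earlier results of these data known. They are the 1 position in the gene body outside the Rex1 deletion, 10 positions within 50 kb to its left (from 43250000 to 43295000) and 5 to its right (from 43335000 to 43355000). Positions inside that deletion were left out. Left means lower coordinates, which is downstream of Zfp42 because the gene lies on the minus strand.

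Of the 150 Repli-seq samples in the series, 12 belong to chromosome 8, all labelled as mouse embryonic stem cells. They are the early and late S-phase fractions of 6 clones of hybrid cas/129 cells, grown in DMEM with 2i plus LIF and edited by CRISPR. All 6 clones carry at least 1 deletion near Zfp42, and an unedited chromosome 8 profile was not analysed here. Trim.del (clones D9 and E9) lacks chr8:43176771-43181949, a stretch of 5.2 kb that overlaps the right end of Triml1 and the left end of Triml2. Rex1.del (clones D1 and E3) lacks chr8:43302260-43332339, a stretch of 30.1 kb. RexTrim.del (clones D3 and D8) lacks both, which lie 120.3 kb apart. Each clone gives 2 columns of scores, svim for the 129 allele and CAST for the castaneus allele, so there are 12 columns in all. In the clones with the Rex1 deletion, the positions inside it were blank on svim and held values on CAST. Which allele was edited is not in the labels. They also do not say whether the clones of a genotype were derived separately, so p-values do not speak for clones other than these.

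Replication timing is the order in which stretches of the genome are copied during S phase. In Repli-seq, newly made DNA is labelled with BrdU (here a pulse of 2 hours), cells are sorted into early and late S phase by DNA content, and the labelled DNA of each fraction is sequenced. Domains that hold transcribed genes tend to be copied early and silent heterochromatic domains late. Many genes of pluripotency lie in domains that are early in embryonic stem cells and become late as the cells differentiate. The deposited score rises with earlier replication. It carries no fixed unit beyond a scaling that gave every column an interquartile range of 4.60, so differences below are in score units and are not fold changes.

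Zfp42 spans chr8:43295067-43307009 (RefSeq, GRCm38.p6, the mm10 build), 11943 bp on the minus strand. The Rex1 deletion takes the 4750 bp at its start-site end, leaves 7193 bp and reaches 25.3 kb beyond the start site. The 250 bases before the start site, chr8:43307010-43307259 on the minus strand, thus lie inside the deleted interval. They are shown as the promoter window within the interval labelled as deleted in Rex1.del and RexTrim.del. In those clones the positions of the interval were blank on svim and held values on CAST. The capitals mark the octamer ATTTGCAT, the sequence that POU-domain factors such as Oct4 are known to recognise.
Zfp42 promoter: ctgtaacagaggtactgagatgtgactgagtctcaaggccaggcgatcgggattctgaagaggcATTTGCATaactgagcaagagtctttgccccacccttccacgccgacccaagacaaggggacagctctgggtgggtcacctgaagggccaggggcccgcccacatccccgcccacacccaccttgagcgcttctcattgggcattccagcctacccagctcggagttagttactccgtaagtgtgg
The octamer occurs once here, from 186 to 179 bases before the start site. Both strands were searched (ATGCAAAT on the other), and 526 of 32851 RefSeq promoter windows of the same 250 bases (1.6 percent) hold it. The match is a description of the letters, and binding was not measured.

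Some positions of the table hold no value, most of them outside the deletions. All 6 positions inside the Rex1 deletion were blank on the svim allele of the 4 Rex1.del and RexTrim.del clones. The same 6 positions held values on CAST in those clones and on both alleles of the Trim.del clones. The 1 position inside the Trim deletion was blank on svim in the 4 Trim.del and RexTrim.del clones, and also on CAST in RexTrim.del clone D8.

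On svim the Zfp42 region was early in Trim.del, intermediate in Rex1.del and late in RexTrim.del, while on CAST its score was positive in all 6 clones. The region score is the mean over the 16 positions. On svim it was 1.99 in D9 and 1.67 in E9 of Trim.del. It was -0.36 in D1 and -0.86 in E3 of Rex1.del, and -2.61 in D3 and -2.96 in D8 of RexTrim.del. On svim both Trim.del clones lay above both Rex1.del clones, and these above both RexTrim.del clones. How many other chromosome 8 positions separate the clones in this way was not counted.

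On CAST the region score was 1.19 in D9 and 2.13 in E9 of Trim.del. It was 2.51 in D1 and 2.31 in E3 of Rex1.del, and 1.64 in D3 and 1.01 in D8 of RexTrim.del. All 6 CAST scores were above 1, and the Trim.del clones overlapped the RexTrim.del clones.

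Set against its own column, the region lay above 69.8 percent of chromosome 8 positions on svim in D9 and above 66.9 percent in E9. In Rex1.del the svim region lay near the middle of the chromosome, above 56.7 percent of positions in D1 and 46.4 percent in E3. In RexTrim.del it lay in the late part, above 24.7 percent in D3 and 17.7 percent in D8. On CAST the share ran from 59.8 percent in D8 to 79.1 percent in E9, so by rank the lowest CAST value was close to svim of D1.

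**Figure D1:**
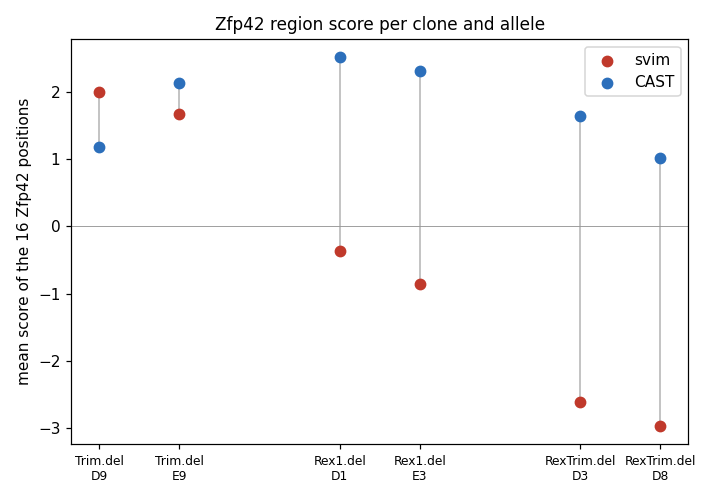
Mean replication timing score of the 16 Zfp42 positions (vertical axis, score units) in each of 6 clones (horizontal axis), with svim in red and CAST in blue and a grey line joining the alleles of a clone. CAST lies between 1.01 and 2.51 throughout, whereas svim runs from 1.99 in Trim.del down to -2.96 in RexTrim.del.

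The same order held inside what is left of the gene. At position 43300000, the gene body position, svim scored 2.01 in D9 and 1.66 in E9 of Trim.del, -0.39 in D1 and -0.93 in E3 of Rex1.del, and -2.62 in D3 and -2.98 in D8 of RexTrim.del. CAST there scored 1.20 in D9, 2.14 in E9, 2.67 in D1, 2.33 in E3, 1.60 in D3 and 1.07 in D8. The gene body thus showed no clone whose rank among genotypes differed from that of the region on svim.

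The members differed little among themselves. At the left end, position 43250000, svim scored -0.18 in D1 and -0.63 in E3 of Rex1.del, and at the right end, position 43355000, it scored -0.68 in D1 and -1.13 in E3. In RexTrim.del the svim scores at the ends were -2.57 and -2.66 in D3, and -2.88 and -3.03 in D8. In Trim.del they were 2.08 and 1.85 in D9, and 1.63 and 1.75 in E9. Svim was lower at the right end than at the left in 5 of the 6 clones, D9 of Trim.del among them, and higher in E9. These slopes were small beside the distance between the genotypes. Neighbouring positions differed by a median of 0.014 in the members and 0.0129 over the chromosome, so the 16 positions are close to repeats of 1 measurement and are not independent.

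**Figure D2:**
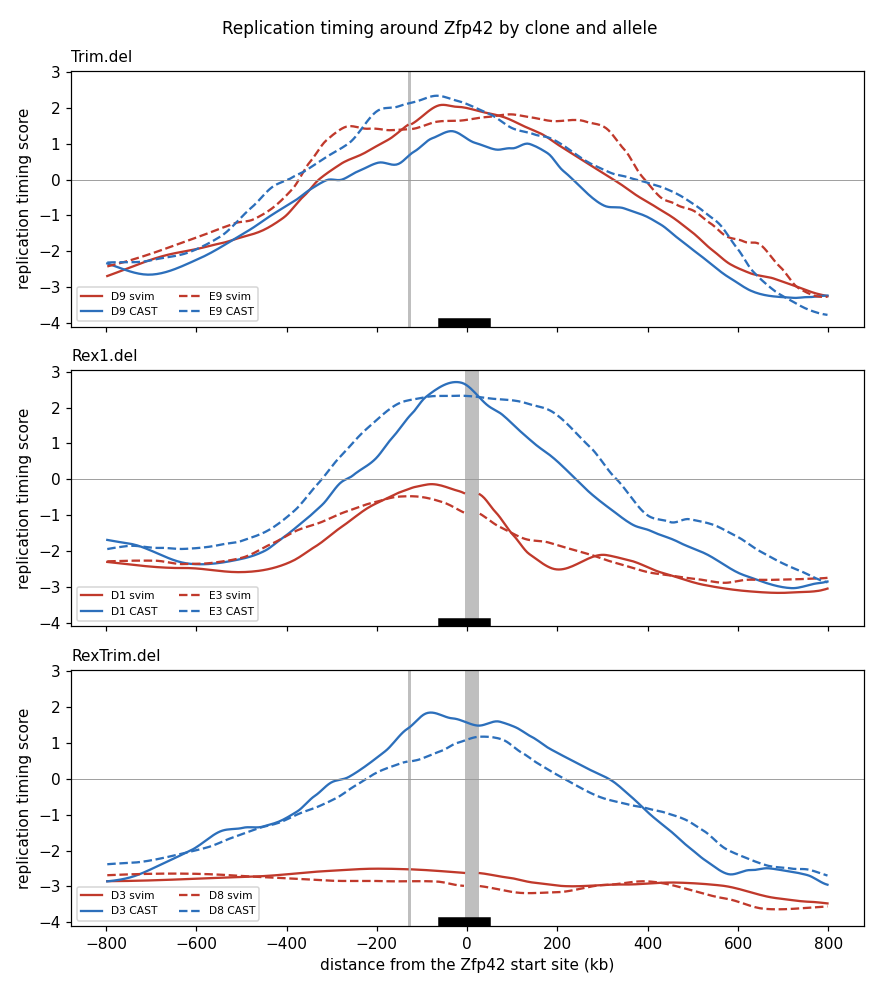
Replication timing score (vertical axis) against distance from the Zfp42 start site in kb (horizontal axis), 1 panel per genotype, svim in red and CAST in blue, with the clones as solid and dashed lines. Grey bands mark the deletions and the black bar marks the span of the 16 positions. There svim of RexTrim.del stays flat between -2.6 and -3.0 and CAST of the 6 clones lies between 0.78 and 2.71.

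Ordered from early to late, the group means of the region were 2.41 ± 0.14 for CAST of Rex1.del, 1.83 ± 0.23 for svim of Trim.del, 1.66 ± 0.67 for CAST of Trim.del, and 1.32 ± 0.44 for CAST of RexTrim.del (SD, n = 2 clones each). Svim of Rex1.del followed at -0.61 ± 0.35 and svim of RexTrim.del at -2.79 ± 0.25. Of the neighbours in this order, svim and CAST of Trim.del overlapped, as did CAST of Trim.del and CAST of RexTrim.del. The step from the lowest CAST group to svim of Rex1.del and the step from there to svim of RexTrim.del were both larger than the spread of the clones on either side.

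Within a clone both alleles come from the same libraries, so the svim minus CAST difference compares them directly. It was 0.81 in D9 and -0.46 in E9 of Trim.del, clones that pointed in opposite directions. In Rex1.del it was -2.87 in D1 and -3.17 in E3. In RexTrim.del it was -4.25 in D3 and -3.97 in D8. Svim was later than CAST in all 4 clones with the Rex1 deletion and in 1 of the 2 without it.

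The genotype means were tested with limma across all 25216 positions that had a value in every column outside the deletions, with Benjamini-Hochberg adjustment, and a position or span is called here where the adjusted p is under 0.05. In Trim.del the alleles differed by 0.18 ± 0.90 (SD, n = 2; SE 0.28, 95 percent interval from -0.46 to 0.811, limma adjusted p = 0.7892). Without clone D9 the value was -0.46. In limma none of the 16 positions was called in Trim.del, where 14 percent of all positions were called in either direction, and 0 of the 16 had an unadjusted p under 0.05. The limma SE and interval come from 1 spread shared by the 3 genotypes and drawn partly from all positions. The SDs of the clones themselves were 0.90 in Trim.del, 0.21 in Rex1.del and 0.20 in RexTrim.del. The interval thus understates the spread between the Trim.del clones, and every contrast with Trim.del shares this limit. Even as it stands, the interval is too wide to show that the alleles of Trim.del replicate alike.

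In Rex1.del svim was later than CAST (mean -3.02 ± 0.21, SD, n = 2; SE 0.28, interval -3.654 to -2.383, limma adjusted p = 0.0002087). All 16 positions were called lower, against 7.09 percent of all positions, with differences from -3.16 to -2.86 beside a median of -0.02 over all positions. In RexTrim.del the mean was -4.11 ± 0.20 (SE 0.28, interval -4.745 to -3.474, limma adjusted p = 3.098e-05). Again 16 of 16 were called lower, against 5.25 percent of all positions, with differences from -4.21 to -4.01 and a median of 0.02 over all positions. Because neighbouring positions repeat each other, the counts of 16 carry little beyond the region mean.

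The allele difference was also set against the rest of the chromosome in each clone. The central 95 percent of all positions ran from -1.395 to 1.426 in D1 and from -1.495 to 1.473 in E3, and the Zfp42 region lay outside both ranges. Only 0.147 percent of positions in D1 and 0.194 percent in E3 had a lower difference than the region. In D3 and D8 of RexTrim.del the share was 0.111 and 0.083 percent. The lowest value on the chromosome lay to the right of the Zfp42 start site in D1 (position 43440000), E3 (43435000) and D8 (43370000). In D3 it lay 77 kb to the left (43230000). In Trim.del the region was inside the central range in both clones, with 89.7 percent of positions lower in D9 and 14.6 percent in E9, and the lowest values lay at positions 20970000 (-5.36 in D9) and 35160000 (-2.42 in E9), far from Zfp42.

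**Figure D3:**
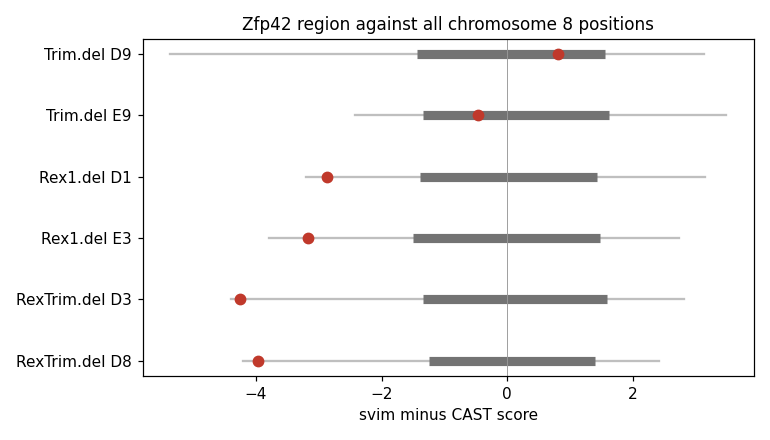
Svim minus CAST score (horizontal axis) in each clone (vertical axis): the red point is the mean of the 16 Zfp42 positions, the thick bar spans the central 95 percent of all chromosome 8 positions and the thin line their full range. The points of D1, E3, D3 and D8 lie near the lower end of the full range and those of D9 and E9 lie inside the thick bar.

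Whether the allele difference itself differed between genotypes was tested as a difference of differences. It was lower in Rex1.del than in Trim.del (-3.19 score units, SE 0.40, interval -4.093 to -2.296, limma adjusted p = 0.00594). Here 16 of 16 positions were called lower, against 0.436 percent of all positions. This call depended on which clones entered the fit. Without D1 the difference was -3.34 (limma adjusted p = 0.08737), without E3 -3.05 (limma adjusted p = 0.1702), and without D3 or without D8 it stayed at -3.19 with a limma adjusted p of 0.05011 each. With the columns quantile-normalised it was -2.58 (limma adjusted p = 0.1713).

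RexTrim.del differed from Trim.del in the allele difference by -4.29 (SE 0.40, interval -5.184 to -3.387, limma adjusted p = 0.0005017), with 16 of 16 positions called lower, against 0.65 percent of all positions. This call held with each of the 6 clones left out in turn, at values from -4.92 to -3.65. RexTrim.del and Rex1.del differed by -1.09 (SE 0.40, interval -1.99 to -0.192, limma adjusted p = 0.5549), which was not called. For that contrast limma called 0 of the 16 positions and 0 percent of all positions in either direction, although 16 of the 16 and 2064 positions in all had an unadjusted p under 0.05. The Rex1.del and RexTrim.del comparisons share their Trim.del clones, so they are not separate evidence.

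On svim alone the region fell in both genotypes with the Rex1 deletion. Rex1.del was lower than Trim.del (-2.44, SE 0.32, interval -3.137 to -1.742, limma adjusted p = 0.003598), with 16 of 16 positions called lower, against 4.18 percent of all positions. Without Trim.del clone E9 the difference was -2.60 (limma adjusted p = 0.05669). RexTrim.del was lower than Trim.del (-4.62, SE 0.32, interval -5.315 to -3.92, limma adjusted p = 7.575e-06), with 16 of 16 called lower, against 0.734 percent. RexTrim.del was also lower than Rex1.del on svim (-2.18, SE 0.32, interval -2.875 to -1.48, limma adjusted p = 0.007421), with 16 of 16 called lower, against 1.57 percent. In the same contrast 5.31 percent of all positions were called higher, and 166 of 1043 gene scores were called lower, so differences between these genotypes on svim were spread over the chromosome in both directions. Without Rex1.del clone D1 that difference was -1.93 (limma adjusted p = 0.05494). Over all positions the median of this contrast was -0.27. As an alternative, each column was centred on its median and scaled by its interquartile range over positions more than 2 Mb away. This rescaling moved the median of the contrast to -1.004 and the Zfp42 difference to -2.94.

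On CAST no genotype difference was called. Rex1.del was above Trim.del by 0.75 (SE 0.40, interval -0.143 to 1.652, limma adjusted p = 0.2967), with 0 of 16 positions called by limma, against 0.793 percent of all positions in either direction, and 0 of the 16 at an unadjusted p under 0.05. RexTrim.del differed from Trim.del by -0.33 (SE 0.40, interval -1.23 to 0.565, limma adjusted p = 0.9032), and the value without E9 was 0.14. There limma called 0 percent of all positions and 0 of the 16, with 0 of the 16 and 1075 of all positions at an unadjusted p under 0.05. RexTrim.del differed from Rex1.del by -1.09 on CAST as well (SE 0.40, interval -1.984 to -0.189, limma adjusted p = 0.1706). Limma called 0 percent of all positions and 0 of the 16 there, with 14 of the 16 and 6029 positions in all at an unadjusted p under 0.05. The same rescaling, which also centres each column, made this CAST difference -1.83 (limma adjusted p = 0.02757) beside a median over all positions of -1.07. The trend and robust settings of limma gave -1.09 with an adjusted p of 0.03219. The svim difference between RexTrim.del and Rex1.del was thus accompanied by a CAST difference of the same sign, and the difference between the alleles in this respect, the difference of differences of -1.09, was not called.

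**Figure D4:**
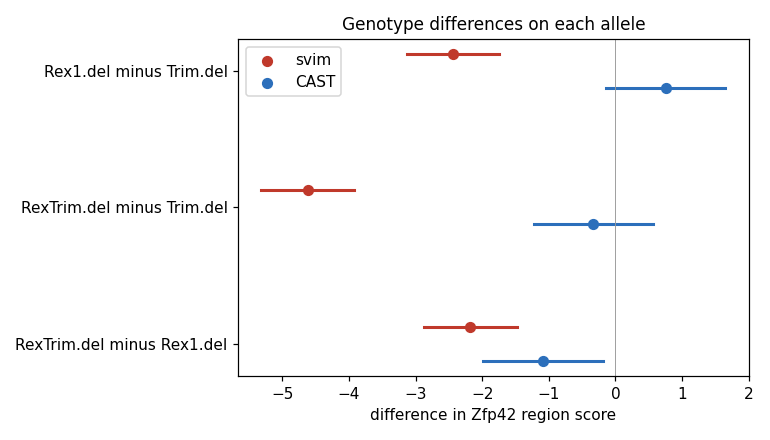
Difference in the Zfp42 region score between genotypes (horizontal axis, score units) for 3 contrasts (vertical axis), svim in red and CAST in blue. Points are limma estimates over 2 clones per genotype and bars are unadjusted 95 percent intervals: the svim bars lie below 0 throughout, and the CAST bars of both contrasts with Trim.del cross 0.

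Exact permutation tests over clones, which borrow nothing from other positions, cannot reach 0.05 in a comparison of 4 clones with 2. The 4 clones with the Rex1 deletion were lower than the 2 without it on svim (-3.53, exact two-sided permutation p = 0.0667, the smallest that 15 splits allow), with 4 of 4 below both Trim.del clones. On CAST the same comparison gave 0.21 (exact two-sided permutation p = 0.6667). For svim minus CAST it gave -3.74 (exact two-sided permutation p = 0.0667). Over all 6 clones the mean allele difference was -2.32, lower in 5 of 6 (exact two-sided sign-flip permutation p = 0.0938, where 64 sign patterns allow 0.0312 at the least).

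The flanks behaved like the gene body. In the left flank the svim minus CAST mean was 0.07 in Trim.del, -3.01 in Rex1.del and -4.07 in RexTrim.del, and in the right flank it was 0.39, -3.00 and -4.17. The left flank lies between the deletions and the right flank lies beyond the Rex1 deletion, so the lower svim scores were present on both sides of the deleted interval.

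The difference reached far beyond the gene. In Rex1.del the unbroken run of positions called lower on svim than on CAST through Zfp42 went from 42915000 to 43890000 (975 kb), and in RexTrim.del from 42690000 to 43855000 (1165 kb). Runs of like length occurred elsewhere for these contrasts: in Rex1.del 1598 other positions were called lower, in 34 runs of up to 158 positions against 189 through Zfp42, and in RexTrim.del 1097, in 18 runs of up to 200 positions against 227. For the difference of differences against Trim.del, the run was 445 kb in Rex1.del (43230000 to 43675000) and 815 kb in RexTrim.del (42925000 to 43740000). The shorter run began 77 kb to the left of the Zfp42 start site and ended 368 kb to its right, and the longer one reached 382 kb and 433 kb. Their ends rest on a threshold, so the lengths of the runs were not tested against each other. For the difference of differences, 26 positions in Rex1.del and 7 in RexTrim.del were called lower outside the run.

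Zfp42 was not at the bottom of the affected stretch. The difference of differences was lowest at position 43415000 in Rex1.del (-3.98, 108 kb to the right of the start site) and at 43385000 in RexTrim.del (-4.81, 78 kb to the right). The svim difference between RexTrim.del and Rex1.del was lowest on the other side, at 43220000 (-2.37), 87 kb to the left of the start site and between the deletions. On svim, RexTrim.del against Trim.del had all 185 of its called positions in 1 run of 955 kb through Zfp42 (42875000 to 43830000), with 0 called lower elsewhere on chromosome 8. Rex1.del against Trim.del on svim had a run of 930 kb and a further 874 positions called lower elsewhere.

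**Figure D5:**
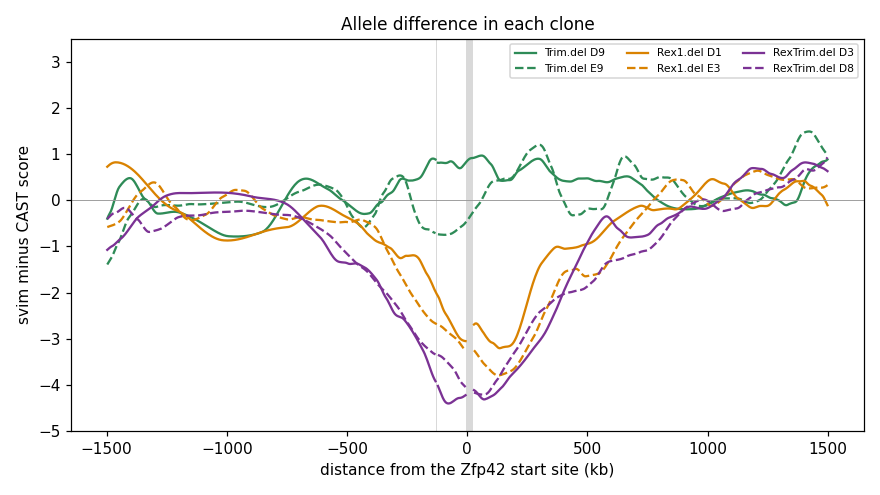
Svim minus CAST score (vertical axis) against distance from the Zfp42 start site in kb (horizontal axis) in each of 6 clones, coloured by genotype, with grey bands for the deletions. The Rex1.del and RexTrim.del clones dip to between -3.2 and -4.4 around Zfp42 and return towards 0 on both sides, while the Trim.del clones (0.81 in D9 and -0.46 in E9 over the 16 positions) show no such dip.

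Neighbouring genes shared the pattern in part. The 3 nearest measured protein-coding genes on each side were scored by the mean over their bodies and tested with limma over 1043 genes of chromosome 8. Zfp42 itself was called lower in the difference of differences for Rex1.del (-3.32, limma adjusted p = 0.04574) and for RexTrim.del (-4.30, limma adjusted p = 0.01354). Of the 6 neighbours, 2 were called lower for Rex1.del against Trim.del, where 0.288 percent of genes were called, and 5 were called lower for RexTrim.del, where 0.767 percent were.

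To the left lie Triml1 and Triml2, members of the tripartite-motif-like family, at 115 kb and 101 kb. Both reach into the Trim deletion, and positions inside it were left out of their scores. Triml2 had an svim minus CAST difference of 0.04 in Trim.del, -2.40 in Rex1.del and -3.71 in RexTrim.del, and Triml1 had 0.08, -2.16 and -3.45. In the difference of differences both were called for RexTrim.del against Trim.del (limma adjusted p = 0.04027 and 0.04245) and neither for Rex1.del against Trim.del (limma adjusted p = 0.3484 and 0.3594). For svim minus CAST within Rex1.del both were called lower (limma adjusted p = 0.01226 and 0.01541), against 4.31 percent of genes. On svim alone both were also called lower in Rex1.del than in Trim.del (-1.85 and -1.79, limma adjusted p = 0.003038 each), against 3.84 percent of genes. The third gene on that side, Frg1, lies 1.9 Mb away and showed -0.55 in Trim.del, 0.03 in Rex1.del and -0.34 in RexTrim.del, with neither contrast called.

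To the right lie genes of the ADAM family of membrane-anchored metalloprotease-like proteins. Adam26b, 213 kb away, showed 0.68 in Trim.del, -3.16 in Rex1.del and -3.38 in RexTrim.del, and was called in both contrasts (limma adjusted p = 0.009408 and 0.006572). Adam26a, 261 kb away, showed 0.97, -2.49 and -2.98 and was also called in both (limma adjusted p = 0.04574 and 0.01426). Adam34l, 318 kb away, showed 0.60, -1.58 and -2.36 and was called for RexTrim.del (limma adjusted p = 0.01826) and not for Rex1.del (limma adjusted p = 0.1324), a contrast between genotypes that is not taken further here. Within Rex1.del, Adam34l was called lower for svim minus CAST (limma adjusted p = 0.01226). It was also called lower on svim in Rex1.del than in Trim.del (-2.55, limma adjusted p = 0.002838). On CAST of Trim.del, where the gene body of Zfp42 scored 1.67, the means were 0.57 for Adam26b, 0.06 for Adam26a and -0.40 for Adam34l. On svim of RexTrim.del the scores were level, at -2.80 for Zfp42, -3.07 for Adam26b, -3.00 for Adam26a and -2.92 for Adam34l.

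Genes more than 1 Mb away were ranked by how closely their score followed that of Zfp42 over the 12 columns. Among 1035 genes the median Pearson correlation was 0.159, and 2.5 percent of genes were above 0.615. The 5 highest were Arhgef7 (0.797), Arv1 (0.775), Fam89a (0.757), Cers4 (0.752) and Slc7a2 (0.740). The columns share clones and 3 genotypes, so these are descriptions. None of the 5 turned late: the svim mean of RexTrim.del was 2.69 for Arhgef7, 2.34 for Arv1, 2.39 for Fam89a, 1.20 for Cers4 and 1.80 for Slc7a2, where it was -2.80 for Zfp42. The largest svim minus CAST difference among them was -1.05, in Cers4 of Rex1.del.

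A list of 4 other germ line and pluripotency genes of the chromosome was set beside Zfp42. Klf2 is a transcription factor of naive pluripotency, Sall1 a zinc-finger repressor, Tex15 a protein of male meiosis and transposon silencing, and Nanos3 an RNA-binding protein of germ cells. In limma 0 of these 4 were called in either difference of differences. Over all 1043 genes the shares called lower were 0.288 percent for Rex1.del and 0.767 percent for RexTrim.del, so 0 of 4 says little. Sall1 alone had an unadjusted p under 0.05, in Rex1.del against Trim.del (-0.92). Sall1 was called for svim minus CAST in Trim.del (0.90, limma adjusted p = 0.04063), where 53 of 1043 genes were called higher. On svim alone Tex15 and Sall1 were called lower in RexTrim.del than in Rex1.del (-0.84 and -0.73, limma adjusted p = 0.04259 and 0.04909), against 15.9 percent of genes. The svim minus CAST means of the 4 in Rex1.del and RexTrim.del ran from -0.48 (Nanos3, Rex1.del) to 0.47 (Sall1, RexTrim.del).

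The chromosome 8 columns held between 25223 and 25240 values from -4.21 to 4.77. Genes listed as early (Junb, Calr, Klf2, Farsa) scored 1.08 to 2.98, and their mean was above that of the late list (Csmd1, Dlc1, Sgcz) in 12 of 12 columns. Every early gene was above every late gene in only 9 of 12, because Dlc1 scored 0.98 to 2.09 against its listing. CAST of Trim.del D9 correlated with the other CAST columns at 0.903 to 0.951, where other columns of either allele reached 0.961 to 0.983 with their closest match. Its part in the low CAST score of D9 was not tested, and the results without D9 are those given above and the ranges over left-out clones. Repli-seq measures no RNA, so the labelled cell type could not be checked against expression markers and no level of Zfp42 RNA was available.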

How the data were processed

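Repli-seq scores of 6 hybrid clones (12 early and late samples) were used. The submitters' processing notes name the mm10 build and the tools Bowtie2, SAMtools and bedtools. For versions, smoothing, log base and allele assignment, the sources used here give nothing. Each deposited value is a score of replication timing, 1 per 5 kb position and allele, in which the authors combined both fractions and scaled each column to a common interquartile range. With the depth unknown, counting error has no interval here.

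The scores were used as deposited. Positions inside either deletion, or blank in any column, were left out, which kept 25216. The region, gene body and both flanks were added as 4 rows, giving limma 3.58.1 (R 4.3.3, lmFit and eBayes, two-sided, Benjamini-Hochberg) fits over all 3 genotypes. Allele differences were taken within clones, so the clone is the block. Exact permutation tests went through all arrangements in Python 3.11.15 with numpy 2.4.6. The fits were tested on simulated data. Promoters and gene positions came from RefSeq tables (GRCm38.p6). Named genes were Zfp42, its 3 nearest measured protein-coding genes on each side, the 5 genes over 1 Mb away that best followed it, 4 listed germ line and pluripotency genes and the listed controls, of which 1 is not reported here. The members and lists were chosen with earlier results of these data known. Alternatives were quantile normalization, rescaling with centring, other flank widths, wider margins at the deletions, 50 kb windows, trend and robust eBayes, no clone block, and each clone left out, with D9 also singled out after seeing the data.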

Additional observations from a re-analysis of the deposited data

Results flagged for a closer look

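The svim minus CAST difference at Zfp42 was flagged because it differed between genotypes by a test of the difference itself. It was -3.19 score units in Rex1.del against Trim.del (limma adjusted p = 0.00594) and -4.29 in RexTrim.del against Trim.del (limma adjusted p = 0.0005017), with all 4 clones that carry the Rex1 deletion below both that do not. Both comparisons use the same 2 Trim.del clones, whose own differences, 0.81 and -0.46, have opposite signs.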

How the results depend on the processing

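Quantile normalization of the columns ended the call for svim minus CAST in Rex1.del against Trim.del (-2.58, limma adjusted p = 0.1713; over all alternatives apart from left-out clones, 0.0007667 to 0.1713). Rescaling with centring (-1.83) and trend and robust settings (-1.09) brought CAST of RexTrim.del against Rex1.del past the threshold. Not called and changed in sign were svim minus CAST of Trim.del in the left flank under quantile normalization (-0.038), and CAST of RexTrim.del against Trim.del in the right flank under quantile normalization (0.048) and with 100 kb flanks (0.036). The cause was not tested. Without the replicate block (alleles unpaired), the region value of Rex1.del against Trim.del stayed at -3.19 with a limma adjusted p of 0.0361 and 10 of 16 positions called, the left flank lost that call (limma adjusted p = 0.06096), and no call of the region mean changed.

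With each clone left out in turn, region values of svim minus CAST ran from -0.46 to 0.81 in Trim.del, -3.17 to -2.87 in Rex1.del, -4.25 to -3.97 in RexTrim.del, -3.83 to -2.56 for Rex1.del against Trim.del, -4.92 to -3.65 for RexTrim.del against Trim.del and -1.24 to -0.94 for RexTrim.del against Rex1.del. On svim they ran from -2.69 to -2.19, -4.79 to -4.44 and -2.43 to -1.93 for the same contrasts, and on CAST from 0.28 to 1.23, -0.80 to 0.14 and -1.40 to -0.77. For svim minus CAST within a single genotype, the ends of these ranges are the values of its 2 clones, so they are no separate check. A genotype left with 1 clone was assumed to vary like the others. Trim.del without D9 also turned negative in the gene body (-0.48), left flank (-0.61) and right flank (-0.15), and without E9 it was 0.81, 0.74 and 0.94. CAST of RexTrim.del against Trim.del turned positive without E9 in the gene body (0.14), left flank (0.0025) and right flank (0.41), and without D8 in the right flank (0.11); without D9 it was -0.80, -0.93 and -0.54. With 2 clones a genotype, the spread between clones limits the precision.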
